A study of Mus musculus with 48 samples.

Results

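Among 24 mice of a line selected for low ethanol preference, 12 carried a clear signal of Gm8172, a processed pseudogene of the ribosomal protein gene Rps6, in the shell of the nucleus accumbens, and 12 did not. The mice with Gm8172 were chosen by their measured value of this gene, which had to exceed 100 normalised counts, and the remaining Low mice formed the other subset. The 12 mice with Gm8172 were 5 females and 7 males, the 12 without were 7 females and 5 males, and they came from a study of 48 mice in all. All mice belonged to the heterogeneous stock-collaborative cross (HS-CC), an outbred stock bred from the inbred founder strains of the Collaborative Cross. The lines had been selected on High or Low ethanol preference for 4 generations, and no drug treatment, transgene or age was given in the labels. The 24 High mice (12 females and 12 males), which the rule did not use, are given beside both Low subsets. One poly(A) RNA library was made per mouse from laser-microdissected tissue. Each selected line was 1 population, and no family records were used here. Mice with Gm8172 counts may thus be relatives, and p values treat them as independent.

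Ribosomal protein S6, the product of Rps6, is part of the small ribosomal subunit and is phosphorylated by the S6 kinases that act under mTOR complex 1. Ribosomal protein genes have left many processed pseudogenes in mammalian genomes, which arise when a spliced messenger RNA is copied back into DNA and inserted elsewhere. Such copies lack introns, mostly lack a promoter of their own, and stay close enough in sequence to their parent that short reads of parent and copy can be hard to assign.

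Rps6 lies on chromosome 4, on the minus strand, and has 5 exons. Its first listed exon, exon 5, starts at 86500564 (mm9). Gm8172 (ENSMUSG00000082926) lies on chromosome X, with its exon starting at 66858632 (mm9). In GENCODE M21 (GRCm38) the Rps6 coding sequence and the Gm8172 transcript had the same length of 750 bases, no gap between them and 99.2% identity. The 6 differing positions, counted from 1 at the A of the start codon and written as Rps6 base, position and Gm8172 base, were T294C in exon 3, C378T, C426A and T468C in exon 4, and T575A and C594T in exon 5. The first 293 bases were identical. The stretches that hold all 6 differences are shown. In these reference sequences they are the only coding positions at which a read can separate the pseudogene from its parent. The sequences of the founder strains and of the mice themselves were not compared. Capitals mark the differing bases, and the stretches run from position 279 to 483 and from 560 to 609.
Rps6 279 to 483: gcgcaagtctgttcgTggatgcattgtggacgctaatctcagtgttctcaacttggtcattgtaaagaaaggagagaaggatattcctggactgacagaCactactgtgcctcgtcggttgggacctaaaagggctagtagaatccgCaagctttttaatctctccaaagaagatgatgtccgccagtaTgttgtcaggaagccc
Gm8172 279 to 483: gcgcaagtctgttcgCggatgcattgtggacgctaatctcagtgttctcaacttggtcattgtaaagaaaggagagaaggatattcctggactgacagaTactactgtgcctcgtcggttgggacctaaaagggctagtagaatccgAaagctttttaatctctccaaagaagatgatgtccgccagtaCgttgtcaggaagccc
Rps6 560 to 609: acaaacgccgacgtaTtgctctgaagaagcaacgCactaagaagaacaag
Gm8172 560 to 609: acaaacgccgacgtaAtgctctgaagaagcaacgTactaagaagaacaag

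The Gm8172 values chose the mice, so they are a description without a test. Gm8172 was 371, 504 and 955 normalised counts (lowest, median and highest) in the 12 mice with it, and 0, 1 and 4 in the 12 without. The members nearest the threshold of 100 were therefore at 371 and 4, and a threshold of 10 gave the same 12 mice. In the High line Gm8172 lay between 0 and 4 in all 24 mice. In the females with Gm8172 the median was 416 (371 to 797, n = 5) and in the males 555 (423 to 955, n = 7), and these ranges overlapped.

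Rps6 itself can exchange reads with Gm8172, so its level is not independent of the rule. The fit over all genes includes Rps6 and counts it among its calls below, and these calls are a description that supports nothing further. Rps6 was 1793, 2464.5 and 3198 normalised counts in the mice with Gm8172, and 2797, 3551.5 and 3894 in those without. The subsets overlapped only between 2797 and 3198, and no mouse with Gm8172 exceeded the median of the mice without. The High mice, at 2633 to 4289 with a median of 3548, resembled the Low mice without Gm8172. The difference of Low mice with minus without was -0.52 ± 0.088 (SE) on the log2 scale. The sum of Rps6 and Gm8172 was 2590, 2917 and 3774 in the mice with Gm8172 and 2799, 3552.5 and 3895 in the mice without. The sum holds the Gm8172 value that chose the mice, so adding it had to raise the subset with Gm8172 and tests nothing. The median sum with Gm8172 still lay below that of the other Low mice, and the pooled ranges of the sums overlapped. In females the sums were 2590 to 2933 (n = 5) with Gm8172 and 2966 to 3895 (n = 7) without. The share of all genes whose ranges separate in females was not computed, so this narrow gap is a description only. In males the sums overlapped, at 2896 to 3774 (n = 7) with Gm8172 and 2799 to 3892 (n = 5) without. The log2 difference of Rps6 was -0.66 in females and -0.38 in males, with a difference between the sexes of -0.28 ± 0.171 (SE).

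Counts assigned to Gm8172 were not an equal share of the sum in the 12 mice. Which locus these counts came from was not tested. Gm8172 made up 13.0% to 15.5% of the sum in 9 mice and 30.8% to 33.0% in the other 3, which were Low female replicate 10 and Low male replicates 7 and 8. In these 3 mice Gm8172 was 797, 955 and 923 and Rps6 was 1793, 1941 and 1978, while the 9 others had Gm8172 from 371 to 576 and Rps6 from 2220 to 3198. No mouse lay between the ranges. In Low mice without Gm8172 the share was at most 0.116%, and in High mice at most 0.102%.

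**Figure D1:**
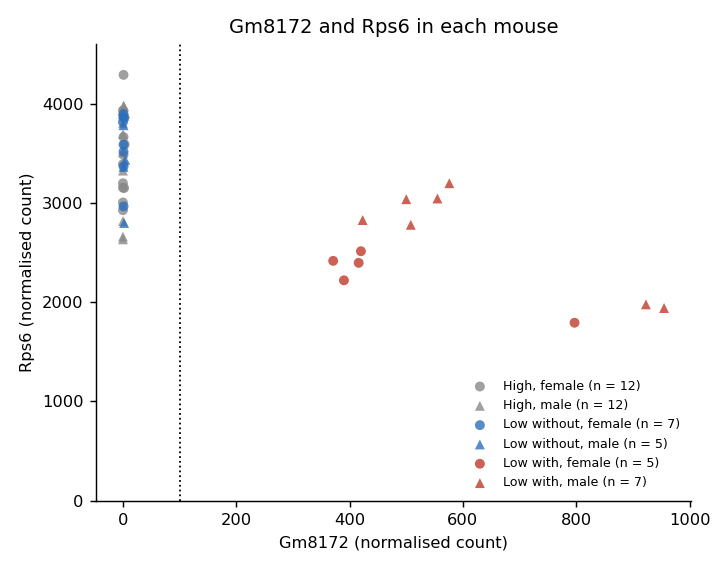
Rps6 (y axis, normalised counts) against Gm8172 (x axis, normalised counts) in each of the 48 mice, coloured by line and Gm8172 status, with circles for females, triangles for males and a dotted line at the threshold of 100. The 12 mice with Gm8172 lie between 371 and 955, and the 3 with the highest values have the lowest Rps6 (1793 to 1978).

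The exon table showed where along Rps6 the lower counts lay. In a fit over all 67401 tested exon rows, added after seeing the data, 4 (0.00593%) were called. They were the last row of Acer2, the same row listed for ENSMUSG00000091609, and the Rps6 rows of exons 3 and 4 and of exon 5. The Acer2 row and its copy are the same measurement. The Rps6 rows can exchange reads with Gm8172, so their calls are a description that supports nothing further. The table lists Rps6 in 3 rows, each covering 1 or 2 exons. The row of exons 1 and 2, with 138 coding bases and 0 differences from Gm8172, was 542, 600 and 716 in mice with Gm8172 and 536, 622 and 781 in mice without. These ranges overlapped almost wholly. The row of exons 3 and 4, with 358 coding bases and 4 differences, was 984, 1371.5 and 1784 against 1573, 1999.5 and 2197. The row of exon 5, with 254 coding bases and 2 differences, was 224, 509.5 and 729 against 688, 913.5 and 1046. The 5′ row of the gene was thus at 0.965 times the median of the mice without Gm8172, the middle row at 0.686 times and the 3′ row at 0.558 times. High mice had medians of 629.5, 1997.5 and 935 in the same order.

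Other genes with sequence like Rps6 were at low counts where they were listed. In GENCODE M21, 13 genes, all processed pseudogenes, had at least 20% of their 25-base words in common with Rps6, and Gm8172 had 80.2%. The deposited gene table held 11 of them. The 10 apart from Gm8172 did not exceed 8 normalised counts in any of the 48 libraries, and the other 2 were not analysed here. For a copy such as Rps6-ps4, whose words all occur in Rps6 (100%), no read within these words can be told from Rps6, so its low count says nothing about its expression.

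**Figure D2:**
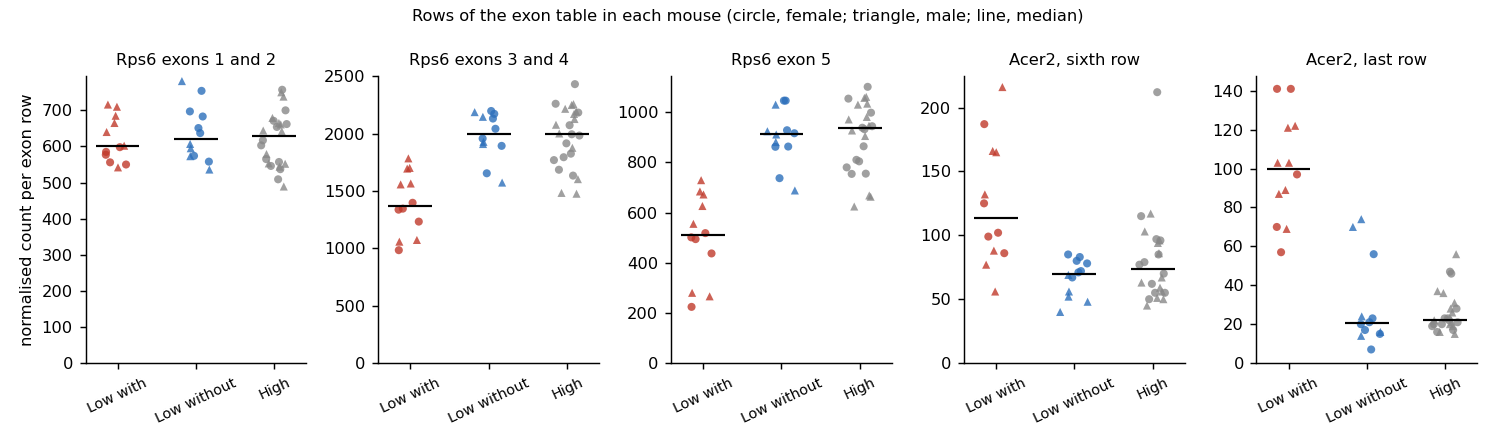
Normalised counts (y axes) of the 3 Rps6 exon rows and of the sixth and last Acer2 rows in each mouse, for Low mice with Gm8172, Low mice without and High mice (circles, females; triangles, males; lines, medians). The Rps6 medians of the mice with Gm8172 are 600, 1371.5 and 509.5 from the 5′ to the 3′ row against 622, 1999.5 and 913.5 without, and the last Acer2 row has medians of 100 against 20.5.

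The next question was which other transcripts differed between the Low mice with and without Gm8172. Of 14747 genes tested (limma with gender as covariate, Benjamini-Hochberg adjusted p under 0.05), 4 were called, which is 0.0271%, with 3 higher (0.0203%) and 1 lower (0.00678%) in mice with Gm8172. At an unadjusted p under 0.05 there were 506 genes, or 3.43%. Leaving out each Low mouse in turn gave 2 to 6 calls, with 2 without Low male replicate 3 or 4 or Low female replicate 6 or 10. The lower gene was Rps6. The 3 higher ones were Acer2, Ttc39b and ENSMUSG00000091609, and the last shares exon rows with Acer2 and is no separate observation. Acer2 and Ttc39b lie within 4 Mb of each other on chromosome 4. Rps6 lies in the same region, but its call is not independent of the rule and adds nothing here. No gene near Gm8172 on chromosome X was called.

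Acer2 encodes an alkaline ceramidase of the Golgi that splits ceramide into sphingosine and a fatty acid. Its first listed exon, at 86520300 on chromosome 4 (mm9), starts 0.0197 Mb from that of Rps6. Acer2 was 170, 236.5 and 387 normalised counts in the 12 mice with Gm8172 and 67, 102.5 and 146 in the 12 without. Every mouse with Gm8172 lay above every Low mouse without it, and Acer2 was the only 1 of 14747 genes (0.00678%) for which the subsets did not overlap. Its mean was 252 ± 72.8 (SD, n = 12) against 106 ± 22.2, a 2.26-fold difference with a log2 value of 1.18 ± 0.138 (SE, limma adjusted p = 8.47e-05). With each of the 24 Low mice left out in turn the adjusted p reached at most 0.000375. High mice had 71, 111 and 280.

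The Acer2 counts were spread unevenly over its 8 exon rows. Rows before the sixth had means of at most 6.5 with Gm8172 and 2.83 without. The seventh and last rows are also listed for ENSMUSG00000091609, and which gene their counts came from was not tested. The last row, starting at 86577936, was 57, 100 and 141 in mice with Gm8172 against 7, 20.5 and 74 without, a log2 difference of 1.67 ± 0.233 (SE). The sixth row, starting at 86563298 and the largest, was 56, 113.5 and 216 against 40, 70 and 85, with a log2 difference of 0.81 ± 0.168. The sixth row was not called (limma adjusted p = 0.495) and overlapped between the subsets. The last row overlapped through Low male replicates 4 and 10, which had no Gm8172 and stood at 70 and 74, and Low female replicate 4, at 56, lay just below the lowest mouse with Gm8172. The total of the 7 rows apart from the sixth was 78, 125 and 201 with Gm8172 and 9, 30.5 and 83 without.

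ENSMUSG00000091609 has no symbol in the annotation used. Its 2 exon rows start where the last 2 rows of Acer2 start and hold identical values in 48 of 48 libraries, so its values and those of Acer2 are not separate measurements. It was 64, 111.5 and 164 with Gm8172 and 8, 22 and 80 without, with a log2 difference of 1.76 ± 0.243 (SE, limma adjusted p = 0.00088). The subsets overlapped only through Low male replicates 4 and 10, at 74 and 80, and Low female replicate 4 stood at 62.

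Ttc39b encodes a tetratricopeptide repeat protein known from high-density lipoprotein metabolism. Its first listed exon starts at 82866204 (mm9), at -3.63 Mb from Rps6, where negative values lie at lower coordinates. Ttc39b was 314, 366.5 and 537 normalised counts in mice with Gm8172 and 211, 280.5 and 334 in mice without. The subsets met only between 314 and 334, and all 12 mice with Gm8172 exceeded the median of those without. The log2 difference was 0.49 ± 0.0883 (SE, limma adjusted p = 0.0352). This call was close to the threshold: it was lost in 15 of 24 fits with 1 mouse left out, with an adjusted p of up to 0.114. These mice were Low female replicates 1, 2, 4, 6, 7, 8, 9, 10 and 11 and Low male replicates 1, 3, 4, 8, 10 and 12. Of the 24 exon rows of Ttc39b, 20 had the higher mean in mice with Gm8172. Rows of a gene are not replicates, and the share of such rows over all genes was not computed. Apart from the largest row, no row had a mean above 6.33 in either subset. The largest row, the first listed, was 283, 309 and 420 against 199, 249.5 and 310, and the sum of the other 23 was 30, 62 and 116 against 10, 25.5 and 43.

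Haus6 encodes a subunit of the augmin complex, which nucleates microtubules within the mitotic spindle. It starts at -0.276 Mb from Rps6 and had the smallest p among the genes not called with a higher value. Haus6 was 118, 170 and 234 normalised counts with Gm8172 and 96, 128 and 157 without, with a log2 difference of 0.40 ± 0.101 (SE, limma adjusted p = 0.769). The subsets overlapped between 118 and 157. Of its 17 exon rows, 16 had the higher mean in mice with Gm8172. These rows are likewise not replicates, and the share over all genes was not computed. Apart from the largest row and the row starting at 86228785, none had a mean above 5.25 in either subset. The largest row was 63, 110 and 156 against 66, 88.5 and 113, and the sum of the other 16 was 42, 60 and 86 against 27, 38.5 and 51.

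**Figure D3:**
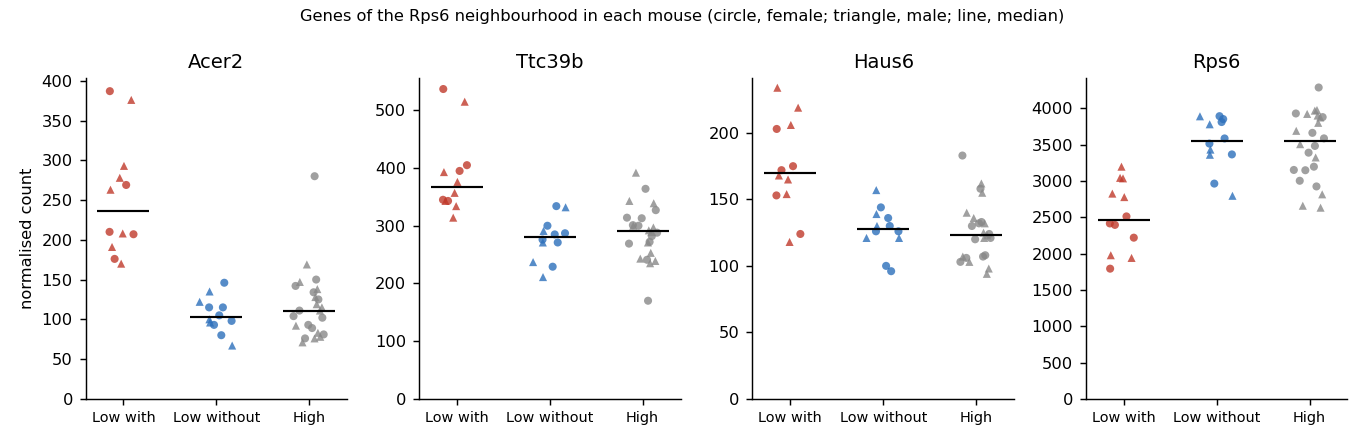
Normalised counts (y axes) of Acer2, Ttc39b, Haus6 and Rps6 in each mouse, for Low mice with Gm8172, Low mice without and High mice (circles, females; triangles, males; lines, medians). Acer2 shows no overlap between the Low subsets (170 to 387 against 67 to 146), and the High mice lie around the Low mice without Gm8172 in all 4 genes.

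The 3 mice with the largest share of Gm8172, picked by the value that the rule used, had higher medians of these neighbours than the other 9. Low female replicate 10 and Low male replicates 7 and 8 had Acer2 at 387, 376 and 263, Ttc39b at 537, 515 and 393, and Haus6 at 203, 219 and 234. In the other 9 mice with Gm8172, Acer2 ran from 170 to 293, Ttc39b from 314 to 405 and Haus6 from 118 to 206. The ranges of the 3 and the 9 overlapped in each gene, and the comparison was made after the values were seen and was not tested. Without these 3 mice, 2 genes were called, Acer2 and ENSMUSG00000091609, and the log2 difference was 0.38 for Ttc39b (limma adjusted p = 0.176).

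Apart from Acer2, genes close to Rps6 were not called. Within 1 Mb of Rps6, 8 other genes were tested, 1 was called and 3 (37.5%) had an unadjusted p under 0.05, namely Acer2, Haus6 and Plin2. Plin2, a lipid droplet coat protein at -0.206 Mb, was 54, 94.5 and 145 against 44, 72.5 and 107, with a log2 difference of 0.40 ± 0.147 (SE) that was not called. Slc24a2, a potassium-dependent sodium and calcium exchanger at 0.128 Mb, had medians of 1436.5 and 1312.5. Dennd4c, an activator of Rab GTPases at -0.106 Mb, had medians of 136.5 and 143. Nearer to Rps6 than Haus6 and Plin2, Dennd4c and Slc24a2 thus had differences of -0.082 ± 0.0945 and 0.16 ± 0.0901 on the log2 scale. Rraga, the RagA GTPase of amino acid signalling to mTOR complex 1, had medians of 1398.5 and 1506.5. Mllt3, a chromatin reader, had 448 and 492, and Adamtsl1, a secreted matrix protein, had 21 in both subsets.

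In wider windows the share of genes at an unadjusted p under 0.05 was lower. Each window contains the narrower ones, so these shares do not give the frequency at each distance. Within 5 Mb of Rps6, 6 of 23 other tested genes (26.1%) had an unadjusted p under 0.05, with a median size of the log2 difference of 0.14. Within 10 Mb it was the same 6 of 41 genes (14.6%, median 0.13), and within 20 Mb 9 of 96 (9.38%, median 0.072). Over all 14747 genes the share was 3.43% and the median size 0.050. The 6 genes were Acer2, Ttc39b, Haus6, Plin2, Cntln and Psip1, of which the last pair are named after their values were seen. Cntln, a centrosome protein at -1.97 Mb, had medians of 196.5 with Gm8172 and 256.5 without (log2 difference -0.29 ± 0.105, SE). Psip1, a chromatin-bound coactivator at -3.40 Mb, had medians of 5046 and 4581.5 (0.13 ± 0.0572). Neither was called. Across the whole of chromosome 4, 42 of 927 genes (4.53%) had an unadjusted p under 0.05.

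The surroundings of Gm8172 on chromosome X did not show this. Within 10 Mb of Gm8172, limma called 0 of 83 tested genes and put 0 at an unadjusted p below 0.05, with a median size of 0.044. At 20 Mb it was 1 of 122 genes (0.82%). The 4 tested genes within 1 Mb were 1110012L19Rik, Fmr1, Ids and Tmem185a. Fmr1, which encodes the RNA-binding protein lost in fragile X syndrome, had medians of 713.5 with Gm8172 and 677.5 without (log2 difference 0.072 ± 0.0553, SE). Ids, a lysosomal sulfatase, had 4638.5 and 4783.5, and Tmem185a, a membrane protein, had 754 and 777.5. The 3 genes with the smallest p within 10 Mb were Prrg3, with medians of 242 and 225, 1110012L19Rik, with 124 and 140, and Gabra3, a GABA-A receptor subunit, with 712 and 809.

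**Figure D4:**
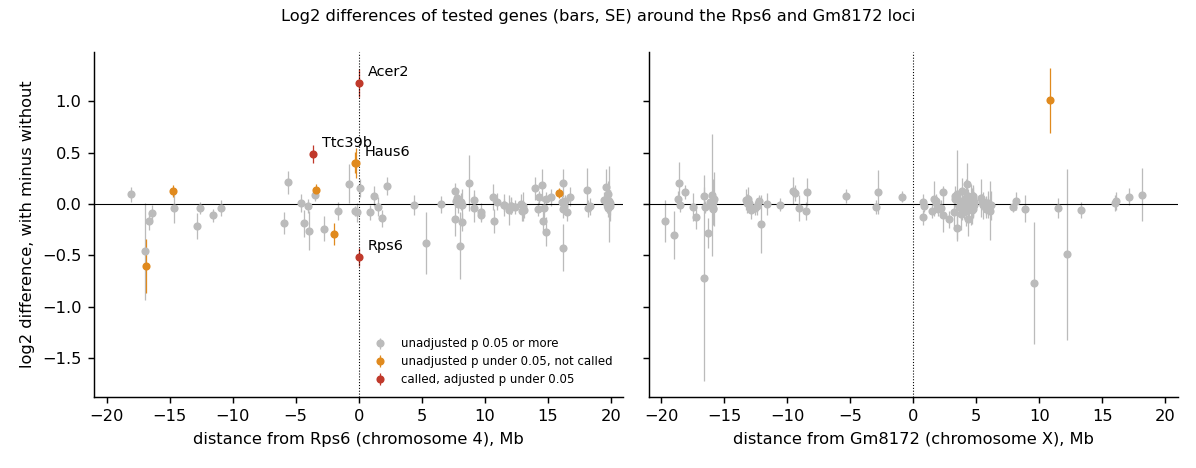
Log2 difference of Low mice with minus without Gm8172 (y axis; bars, SE) for tested genes within 20 Mb of Rps6 on chromosome 4 (left) and of Gm8172 on chromosome X (right), by distance of exon starts in Mb (x axes). Called genes are red and genes at an unadjusted p under 0.05 orange: 9 of 96 genes around Rps6, Rps6 itself not counted, and 1 of 122 around Gm8172.

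The High mice, which played no part in choosing the subsets, were placed beside both in 1 fit over 48 libraries. The comparisons below share libraries and are given side by side. Acer2, Ttc39b and Haus6 were named because they were high in the same Low mice with Gm8172. Their values of High minus Low with Gm8172 reuse those libraries, so they are a description and no separate support. For Acer2 the log2 difference of High minus Low without Gm8172 was 0.10 ± 0.139 (SE, limma adjusted p = 0.928), and that of High minus Low with Gm8172 was -1.08 ± 0.139 (adjusted p = 4.5e-06). For Ttc39b the values were 0.060 ± 0.0829 (adjusted p = 0.929) and -0.43 ± 0.0829 (adjusted p = 0.0115). For Haus6 they were -0.031 ± 0.0872 (adjusted p = 0.97) and -0.43 ± 0.0872 (adjusted p = 0.0142). Rps6, as a description, differed by -0.014 ± 0.073 and 0.50 ± 0.073. Of 14747 genes, 3 (0.0203%) were called between High and Low without Gm8172 and 22 (0.149%) between High and Low with Gm8172. Acer2, Ttc39b and Haus6 were lower in High than in the Low mice with Gm8172, and none of them was called against the Low mice without it.

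Acer2 and Ttc39b had like differences in both sexes. The log2 difference of Acer2 was 1.13 in females (limma adjusted p = 0.0468, 0.0136% of genes called) and 1.22 in males (adjusted p = 0.0291, 0.00678% called), and the difference of these, females minus males, was -0.092 ± 0.28 (SE). Ttc39b had 0.49 in females and 0.48 in males, neither called within a sex, and the difference between the sexes was 0.018 ± 0.18. For Haus6 the values were 0.41 and 0.39. In the test of the difference between the sexes limma called 0 of 14747 genes (0%), while 1896 (12.9%) had an unadjusted p under 0.05. With 5 and 7 mice of a sex in each subset, a limma fit of the males alone called 0 genes (554 at an unadjusted p below 0.05) and of the females alone 5. In that fit of the males Acer2 kept its log2 difference of 1.22 at an adjusted p of 0.289.

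Outside chromosome 4 the genes nearest to being called were not past the threshold. Rps6ka5, a nuclear kinase that bears an Rps6 kinase name, had medians of 471 with Gm8172 and 400.5 without (log2 difference 0.25, limma adjusted p = 0.804). Dact2, a modulator of Wnt and TGF-beta signalling, had 556 and 329, and BC035044 had 37.5 and 10. On the lower side, Bdh2, a short-chain dehydrogenase, had 13.5 with Gm8172 and 39.5 without (-1.11, adjusted p = 0.429). The uncharacterised 2610008E11Rik had 660 and 950 (-0.51, adjusted p = 0.429), and Pdzph1 had 95.5 and 135 (-0.36, adjusted p = 0.54). Rpl14-ps1, annotated as a pseudogene of another ribosomal protein gene, had 43.5 and 183.5 (-1.70, adjusted p = 0.736). On chromosome 4 but 68.7 Mb from Rps6, Mxra8, a cell surface protein, had 52 and 129.5 (-0.92 ± 0.192, SE, adjusted p = 0.191), and Mmp23, a membrane metalloproteinase at 68.5 Mb, had 37.5 and 21. All subsets overlapped for these 9 genes.

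Genes that work with ribosomal protein S6 were examined as lists. With 4 of 14747 genes (0.0271%) called in all, a count of 0 is near the background for any list of this size, here and in the lists that follow. Of 81 tested cytosolic ribosomal protein genes, 1 was called lower, Rps6 itself, and 0 were called higher. Their median log2 difference was -0.058, against -0.00465 over all genes tested, and 9 of the 81 were above 0, against 6984 of the 14747. After Rps6 the smallest p in this list belonged to Rpl35a, at 1287 ± 527.6 (SD, n = 12) with Gm8172 and 1659 ± 476 without, which was not called. Of 27 tested genes of the S6 kinase and mTOR pathway limma called 0, and 0 were at an unadjusted p below 0.05, with a median of 0.012. Sesn2 and Sesn1, stress-induced inhibitors of mTOR complex 1, had the smallest p, at 54.2 ± 8.62 against 65 ± 14.9 and at 968 ± 126 against 1077 ± 145. Of 27 ribosome biogenesis genes 0 were called, with a median of 0.00445; Rrp9, a component of the U3 small nucleolar particle, stood at 524 ± 39.8 against 577 ± 68.3. Of 14 p53 target genes 0 were called, with a median of -0.060.

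The tissue markers were present in every mouse of both subsets. Drd1 and Drd2, the dopamine receptors that mark the main classes of medium spiny neuron, were 1909, 2531 and 3189 and 2794, 3847.5 and 4896 with Gm8172. Without it they were 2178, 2513.5 and 3006 and 2755, 3539.5 and 4813. In the 14 cell type marker lists 0 genes were called, near the background of 0.0271%. Of all 14747 tested genes 6984 were above 0, beside which the counts above 0 below are to be read. Median log2 differences were 0.036 for D1 markers (10 tested), 0.046 for D2 markers (8) and 0.070 for shared medium spiny neuron markers (17). They were -0.17 for interneurons, with 2 of 11 above 0, and -0.19 for septal and diencephalic neurons, with 1 of 9. Oligodendrocyte markers had -0.11, with 1 of 15. Microglia markers had 0.092, with 12 of 13 above 0. The medians were -0.027 for astrocytes, 0.000958 for oligodendrocyte precursors, -0.024 for endothelial and mural cells, -0.046 for leptomeninges and 0.00222 for blood. For choroid plexus and ependymal markers, of which 3 were tested, the median was 0.073. The summed interneuron markers were 3965, 5403.5 and 7196 with Gm8172 and 4895, 6085 and 7333 without, and fewer cells of a type and less RNA per cell cannot be told apart in bulk tissue.

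Pyramidal neuron markers, a sign of neighbouring cortex, varied widely between mice within each subset. Their summed level was 164, 242.5 and 1441 with Gm8172 and 147, 278 and 5200 without, and Slc17a7, the cortical vesicular glutamate transporter, reached 961 and 3886. Ttr, which marks choroid plexus, was between 0 and 10. Without the mouse highest in pyramidal markers, Low male replicate 6, 6 genes were called, with Mxra8 (limma adjusted p = 0.0295) and 2610008E11Rik (adjusted p = 0.0458) joining the 4.

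Lists of genes linked to ethanol and reward held 0 called genes, near the background of 0.0271%. Median log2 differences were -0.00291 for 28 opioid, cannabinoid and peptide genes, 0.033 for 16 dopamine genes, 0.031 for 17 GABA and glycine receptor genes, 0.010 for 24 glutamate receptor genes and -0.034 for 9 genes of alcohol and acetaldehyde metabolism. Nts, the peptide neurotensin, was 640 ± 216 (SD, n = 12) with Gm8172 and 469 ± 94.4 without, and Oprk1, the kappa opioid receptor, was 1069 ± 225 and 857 ± 146. Both had an unadjusted p under 0.05 and neither was called. In 19 immediate early genes the median was -0.023, in 12 mitochondrially encoded genes -0.052 and in 11 interferon-responsive genes -0.15, again with 0 called.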

How the data were processed

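Each of 48 mice gave 1 RNA library. The authors deposited a gene and an exon table whose values are a score: normalised read counts rounded to whole numbers, per the file names and the values. The build mm9 and the tools edgeR 3.4.2, R 3.0.2, STAR 2.4.0, FastQC and CASAVA are named, without roles, per the submitters' processing notes. The counter, its handling of shared reads and of strand, the annotation release and the normalisation method are not given in the sources used here, so antisense reads cannot be told apart. Deposited gene totals ran from 13579559 to 14456195 in mice with Gm8172 and from 13680996 to 14445565 in mice without, and no counting interval applies to normalised values. Genes above 0 numbered 20161 to 20888 and 20125 to 20846.

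The 24 Low mice were split at 100 in Gm8172. Values were tested with limma 3.58.1 (R 4.3.3, mean-variance trend, gender covariate) on log2(value + 0.5 ppm), where 1 ppm of the mean column total is 14.06 units, so fold changes of weak genes are understated. Genes at 1 ppm in at least 12 Low libraries were kept, and Gm8172 was left out. The scripts were tested on simulated data. The exon fit (67401 rows, of which 4, or 0.00593%, were called) was added after seeing the data. The members and lists were chosen with earlier results of these data known. Named genes were Rps6-like genes, called genes, the 5 next in each direction, the top genes of each window and up to 2 of each of 26 lists. Positions are exon starts on mm9, and the deposited tables give no gene ends. Symbols and sequences came from GENCODE M21, with 32897 of 37620 gene identifiers matched, and no position was converted. Sequences were aligned with Biopython 1.88. Alternatives are in the closing section. Replicate numbers only name mice in order of listing. Labels do not pair mice.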

Additional observations from a re-analysis of the deposited data

Results flagged for a closer look

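In 72 groups of 5 or 7 mice of 1 sex and subset, the highest or lowest mouse was compared with its neighbour, and 9 groups held a mouse far from the others; chance gives about 1 in 20. Gm8172 was 797 in Low female replicate 10, against 420 in the next of the 5 females with Gm8172. Ttc39b was 515 in Low male replicate 7, against 393 in the next male with Gm8172. ENSMUSG00000091609 was 62 in Low female replicate 4, against 25 in the next female without Gm8172. Rpl14-ps1 was 789 in Low male replicate 3, against 296 in the next male without Gm8172.

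Among mice with Gm8172, Mmp23 was 17 in Low male replicate 5 (the next was 36), Mxra8 was 129 in Low male replicate 2 (the next was 80) and Bdh2 was 41 in Low female replicate 6 (the next was 12). Among mice without it, Pdzph1 was 170 in Low female replicate 2 (the next was 141) and 1110012L19Rik was 118 in Low male replicate 11 (the next was 136).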

How the results depend on the processing

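The 4 genes called stayed called, with 4 to 6 calls in all, under pseudocounts of 0.1 and 2 ppm, no filter or 5 ppm, equal column totals or upper quartile, no gender covariate, all 48 libraries, library weights, no trend and 3 marker covariates. Females alone gave 5 calls, 3 of them among the 4, and males alone gave 0, which used 12 mice each. Without the 3 mice with the most Gm8172 (an alternative chosen after seeing the data, as was leaving out mice) there were 2. Leaving out each mouse gave 2 to 6, with 2 without Low male replicate 3 or 4 or Low female replicate 6 or 10; these 4 mice also ended the call of Rps6 (adjusted p up to 0.0584). Ttc39b lost its call without any of 15 mice. The 4 exon calls became 0 at a filter of 5 ppm and 7 with 3 marker covariates, and 7 in place of 13 genes had at least 20% of their words in common with Rps6 when words of 50 bases were used; the cause was not tested.

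Differences of genes not called changed sign in males alone for Isl1 (0.13), Adcy5 (-0.048), Npy (0.011), Calb2 (0.10), Ccdc153 (0.66) and Hbb-bs (0.44), in females alone for Cat (-0.029) and with 3 marker covariates for Rasgrf2 (0.045). With 1 mouse left out, differences crossed 0 for Ccdc153 (-0.39 to 0.059), Hbb-bs (-0.19 to 0.051) and Alas2 (-0.087 to 0.14). No paired analysis was possible because the labels pair no mice. Depth before normalisation is unknown, so differences of genes at a few counts were not detectable.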

Other observations

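High female replicate 9 had the highest Acer2 of the 24 High mice, at 280 normalised counts, within the range of the Low mice with Gm8172 (170 to 387). Its Gm8172 was 1 and its Rps6 was 3484. In the exon table its sixth Acer2 row stood at 212, and ENSMUSG00000091609, which covers the last Acer2 rows, stood at 52. The 3 Low mice without Gm8172 but with the highest last Acer2 row had Acer2 totals of 146, 122 and 135 (Low female replicate 4, Low male replicates 4 and 10), the highest of their subset. These mice were chosen after their values were seen. The last row is part of the Acer2 total, so their high totals are no separate observation.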
